A study of Ovis aries with 6 samples.

Results

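Serum amyloid A, S100A12 and SLPI are secreted proteins of innate defence, and 4 genes for them stood among the 1620 genes that the authors listed as changed in sheep granulosa cells transfected with INHBA siRNA. They were taken by name from that table: LOC101121216 and LOC105604171, both described there as serum amyloid A-like, LOC101103771, described as S100-A12, and SLPI. They were selected on their log2 fold changes and levels between the groups in these libraries, so their levels and fold changes are given as a description without a test. The cells were primary granulosa cells of sexually mature Hu sheep (Ovis aries), cultured from follicles of at least 3 mm. RNA was sequenced 24 h after lipid transfection of INHBA siRNA (siINHBA, 3 libraries) or of a negative-control RNA (siNC, 3 libraries). INHBA encodes the beta A subunit of activin A and inhibin A. The labels do not say whether the libraries came from separate cultures or animals, so any spread between them may be technical. In bulk RNA a change in the number of cells of a type and a change in RNA per cell cannot be told apart.

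Serum amyloid A is an apolipoprotein of high-density lipoprotein and the classical acute phase protein, made mainly by the liver and, in its extrahepatic forms, by epithelial and stromal cells under interleukin-1, interleukin-6 and tumour necrosis factor. In other mammals its promoters are known to respond to NF-kB and C/EBP factors. S100A12 is a calcium-binding protein that is abundant in neutrophils, is released as a danger signal and binds the receptor RAGE. SLPI, or antileukoproteinase, is built of WAP domains, is secreted by mucosal epithelia and inhibits neutrophil elastase and related serine proteases.

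INHBA itself, the target of the siRNA, had 8.02, 6.51 and 7.54 FPKM in the siINHBA libraries 1 to 3, against 21.2, 21.8 and 18.5 FPKM in the siNC libraries. FPKM is the read count scaled to transcript length and library depth, so it can be compared between genes. Counts over the listed genes summed to between 1590871 and 2042924 in siINHBA and between 2781548 and 2948524 in siNC, while the depth of the whole libraries, recovered from count over FPKM, lay between 0.952 and 1.17 times that of siNC library 1. The granulosa genes CYP11A1 and NR5A1 were listed, at 51.6 ± 6.45 and 10.9 ± 2.36 FPKM in siINHBA and 142 ± 5.43 and 26.9 ± 1.18 FPKM in siNC (mean ± SD, n = 3), whereas FOXL2, FSHR and CYP19A1 were not among the listed genes and could not be used to check the cell type.

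The acute phase genes came first in level. LOC101121216 had 213, 258 and 248 FPKM in siINHBA libraries 1 to 3, against 18.5, 14.1 and 12.7 FPKM in siNC libraries 1 to 3. The groups were far apart, with the lowest siINHBA library 11.5 times the highest siNC library. These values rest on 4572, 6038 and 6570 reads in siINHBA and on 417, 328 and 301 reads in siNC. Its log2 fold change was 3.99 (SE 0.16, edgeR fit over all 1620 genes), which is 15.9-fold. By mean FPKM it stood 11th of the 1620 listed genes in siINHBA and 300th in siNC.

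LOC105604171 had 136, 137 and 135 FPKM in the siINHBA libraries, against 14.7, 9.01 and 9.66 FPKM in the siNC libraries. The siINHBA libraries differed from each other by less than the counting error of their 2959, 3276 and 3642 reads (SD 0.90% of the mean, counting error 1.66% to 1.84%). In siNC, library 1 was the highest of the 3 for both copies, with 337 reads of LOC105604171 there against 213 and 233 in libraries 2 and 3. The log2 fold change of LOC105604171 was 3.61 (SE 0.18), or 12.2-fold, and the gene stood 22nd in mean FPKM in siINHBA and 391st in siNC.

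Summed over both copies, serum amyloid A reached 349, 395 and 384 FPKM in the siINHBA libraries, against 33.2, 23.1 and 22.4 FPKM in the siNC libraries. The sum averaged 376 ± 24.3 FPKM in siINHBA and 26.2 ± 6.03 FPKM in siNC (mean ± SD, n = 3 each), with a log2 fold change of 3.84 (SE 0.17). As a share of all counts over the listed genes, both copies together took 0.473% to 0.4999% in siINHBA and 0.0183% to 0.0271% in siNC. That total of counts was itself lower in siINHBA, so the shares differ by more than the FPKM values do. Of the 35 listed genes with a mean of at least 100 FPKM in siINHBA, 3 had a log2 fold change above 3, and they were the 2 amyloid A copies and TM4SF1, a tetraspanin-like surface protein (this level was chosen after the values were seen).

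**Figure D1:**
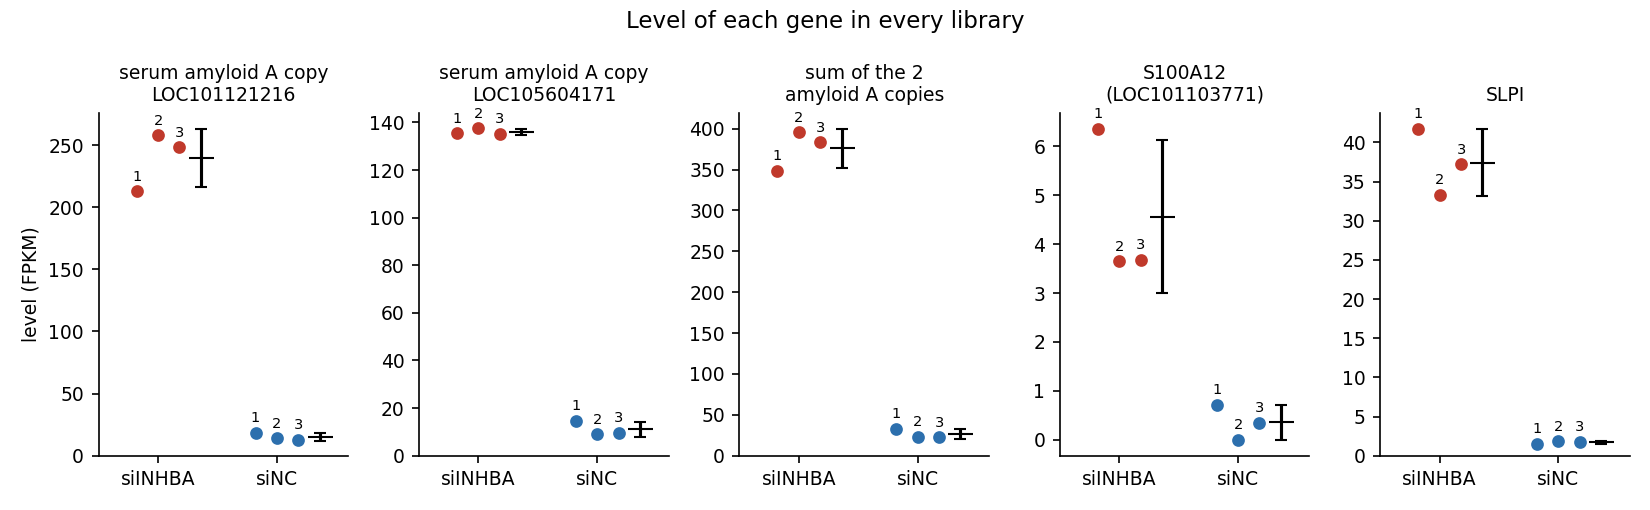
Level in FPKM (vertical axes, linear, a separate scale for each gene) of the serum amyloid A copies, their sum, S100A12 and SLPI in the siINHBA libraries (left, red) and the siNC libraries (right, blue), numbered by replicate, with mean ± SD in black (n = 3). In every panel all siINHBA libraries lie above all siNC libraries, as for 34.3% of the listed genes. The means run from a sum of 376 FPKM in siINHBA and 26.2 FPKM in siNC for amyloid A down to 4.56 and 0.355 FPKM for S100A12.

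The copies did not share the amyloid A reads in the same way in every library. LOC105604171 took 39.3%, 35.2% and 35.7% of the reads of both copies in the siINHBA libraries, against 44.7%, 39.4% and 43.6% in the siNC libraries. The exact 95% binomial interval of siINHBA library 1, 38.2% to 40.4%, lay above those of siINHBA libraries 2 and 3, which reached no higher than 36.6%. It lay inside the interval of siNC library 2, which ran from 35.2% to 43.6%. On the FPKM scale the share averaged 36.3 ± 2.24% in siINHBA and 42.1 ± 2.81% in siNC (mean ± SD, n = 3 each), and siINHBA library 1 and siNC library 2 were alike at 38.87% and 38.93%. The ratio of count to FPKM was nearly the same for both copies, 0.982 for LOC101121216 over LOC105604171 in siINHBA, so the lengths that the authors used hardly differ. How the authors treated reads that match more than one copy is not given in the sources used here, so the level of each copy is less certain than the sum. In the order of protein-coding genes of the RefSeq annotation (ARS-UI_Ramb_v3.0), 3 further loci lie between the copies, and 0 of these 3 were in the table.

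**Figure D2:**
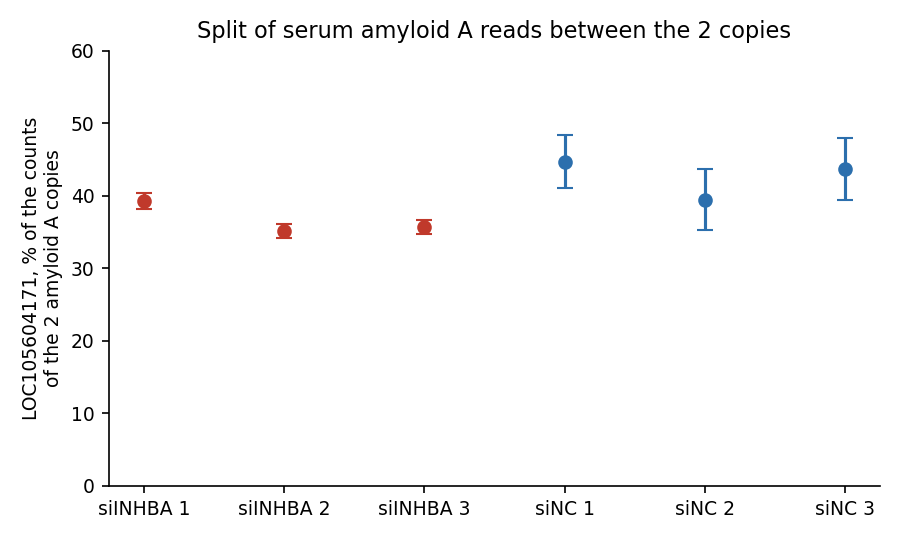
Share of LOC105604171 in the reads of both serum amyloid A copies (vertical axis, %) in each siINHBA library (red, left) and siNC library (blue, right), with exact 95% binomial intervals, which cover counting error only. siINHBA library 1, at 39.3%, lies above siINHBA libraries 2 and 3, at 35.2% and 35.7%, and beside siNC library 2, at 39.4%.

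S100A12 was the least abundant of the 4 genes. LOC101103771 had 114, 73 and 82 reads in siINHBA libraries 1 to 3, against 14, 0 and 7 reads in siNC libraries 1 to 3. The groups did not overlap, as for 34.3% of the listed genes. There was no read in siNC library 2 (95% Poisson interval up to 3.69 reads), and the interval of siNC library 3 ran from 2.81 to 14.4 reads. CXCL1 and IRAK3 also had no read in siNC library 2, although IRAK3 had 20 and 17 reads in siNC libraries 1 and 3. Whether these zeros are more than counting error was not tested. In FPKM the counts of LOC101103771 came to 6.36, 3.65 and 3.68 in siINHBA and to 0.719, 0 and 0.347 in siNC. The log2 fold change was 3.63 (SE 0.60), or 12.4-fold, with 8.20-fold and 18.8-fold at 1 SE below and above. It rested on single control libraries: it was 4.63, or 24.8-fold, without siNC library 1, and 3.06, or 8.31-fold, without siNC library 2. The authors' deposited table gives a log2 fold change of 2.65 for this gene, and the largest difference between that table and the fit for the other 3 genes was 0.27.

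S100A9, which pairs with S100A8 as calprotectin, is the neighbour of LOC101103771 in the RefSeq gene order, with S100A8 on its other side. S100A9 had 67, 79 and 96 reads in the siINHBA libraries, against 27, 10 and 14 reads in the siNC libraries, and rose by 2.19 on the log2 scale (SE 0.35, edgeR adjusted p = 1.4e-04). As for S100A12, siNC library 1 was the highest control library. In siINHBA S100A12 stood at 2.43, 1.29 and 1.20 times the FPKM of S100A9, against 0.710, 0 and 0.739 times in siNC. S100A8 was not among the listed genes. The KEGG column of the deposited table assigns LOC101103771 to S100-A9 while its other descriptions name S100-A12, so the name rests on the authors' annotation, and reads shared between these paralogs were not examined.

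SLPI showed the largest rise of the 4. It had 41.7, 33.3 and 37.3 FPKM in the siINHBA libraries, against 1.51, 1.82 and 1.76 FPKM in the siNC libraries. The lowest siINHBA library was 18.2 times the highest siNC library. The counts behind these levels were 572, 498 and 630 reads in siINHBA and 22, 28 and 27 reads in siNC, so the control level carries a counting error of 18.9% to 21.3% in each library. SLPI had a log2 fold change of 4.42 (SE 0.20), or 21.5-fold. It stood 111th in mean FPKM in siINHBA and 1046th in siNC. Unlike the amyloid A copies and S100A12, SLPI was lowest, not highest, in siNC library 1. The summed amyloid A level was 8.35, 11.9 and 10.3 times that of SLPI in the siINHBA libraries, against 22.0, 12.7 and 12.7 times in the siNC libraries.

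ELANE, annotated as neutrophil elastase, the protease that SLPI is known to inhibit, was also listed. It had 278, 299 and 266 reads in the siINHBA libraries, against 26, 31 and 35 reads in the siNC libraries, and rose by 3.16 on the log2 scale (SE 0.22, edgeR adjusted p = 9.4e-07). In FPKM, SLPI stood at 4.74, 3.83 and 5.44 times ELANE in siINHBA, against 1.92, 2.04 and 1.75 times in siNC. The Swiss-Prot column of the deposited table gives azurocidin, a related neutrophil protein, as the best match of this gene. The identity of ELANE is therefore less certain than that of SLPI. This is not particular to ELANE, since that column also gives related genes for others, such as TLR6 for TLR1 and IRAK1 for IRAK3. PI3 and WFDC12, which also encode WAP proteins and lie within 4 protein-coding genes of SLPI in the RefSeq order, were not in the table. On the other side of SLPI, the syndecan gene SDC4, 4 genes away, was listed with a log2 fold change of 1.76. WFDC3, the other listed WAP gene, rose by 1.20 on the log2 scale (SE 0.18, edgeR adjusted p = 7.6e-05).

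Ranked by log2 fold change among the 555 higher genes, SLPI was 6th, LOC101121216 10th, S100A12 21st and LOC105604171 23rd. All 4 were called higher, but 100% of the 1620 genes passed the threshold of 0.05 (edgeR quasi-likelihood test, adjusted by Benjamini-Hochberg, highest adjusted p = 0.015), because the table holds genes the authors had already called. Of the table, 34.3% were higher and 65.7% lower in siINHBA, and in 34.3% every siINHBA library lay above every siNC library. Under TMM scaling, which shifts the median of the table by 1.09, 555 genes were called higher and 364 lower, in place of 555 and 1065, and the 4 genes had log2 fold changes of 4.70 to 5.51. All 4 described genes belonged to the 2.9% of the table with a log2 fold change above 3. These percentages are the background, and nothing is read from the 4 genes, or from any other listed gene, passing. The edgeR adjusted p values printed for other genes in the main fit are descriptions too, since the authors had already called every gene.

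**Figure D3:**
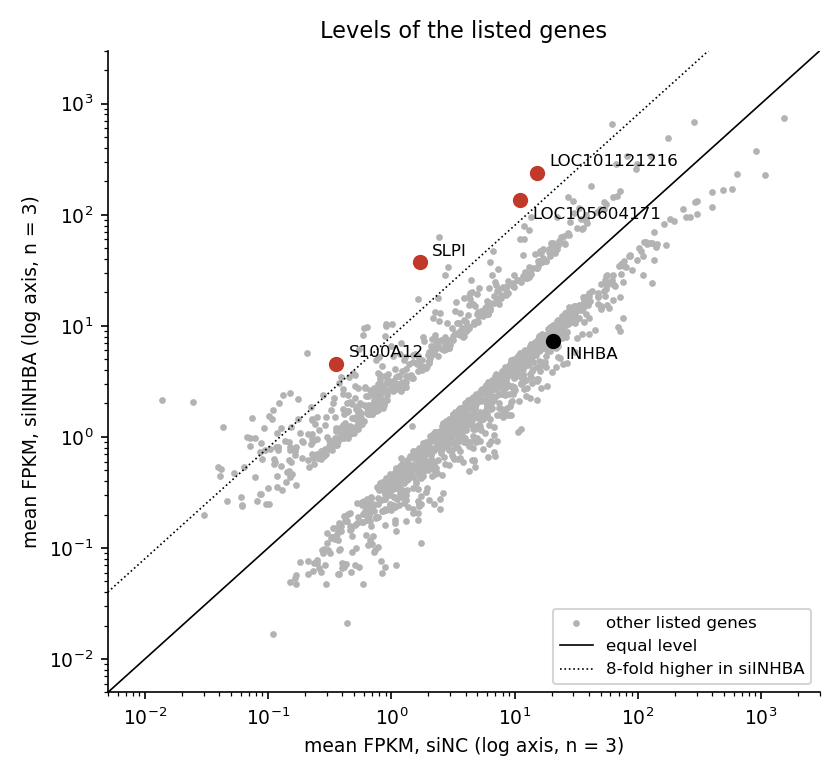
Mean FPKM in siINHBA (vertical, log axis, n = 3) against mean FPKM in siNC (horizontal, log axis, n = 3) for the listed genes, with the 4 described genes in red and INHBA in black. The empty band along the solid line of equal level reflects that only called genes are listed, and the 4 described genes lie above the dotted line of an 8-fold difference.

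The genes with the nearest profile were found from log2 levels over the 6 libraries, relative to the siNC mean, by the root mean square difference among 1208 genes with a symbol and at least 1 FPKM in a group. For LOC101121216 they were BATF2, a leucine zipper factor (difference 0.27), NEURL3, a ubiquitin ligase (0.29), and CFB, complement factor B (0.30). LOC105604171, the other copy, stood at 0.28 by the same measure. For LOC105604171 the nearest were NFKBIZ, a nuclear co-regulator of NF-kB targets (0.22), BATF2 (0.23) and ZC3H12A, which encodes the ribonuclease regnase-1 (0.24). For the summed copies they were BATF2 (0.22), NFKBIZ (0.25) and CFB (0.30).

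NFKBIZ had 33.1, 34.1 and 34.4 FPKM in siINHBA, against 3.03, 2.62 and 2.95 FPKM in siNC, so it shared with LOC105604171 the narrow spread within siINHBA. CFB had 6.09, 12.2 and 11.1 FPKM in siINHBA, against 0.726, 0.496 and 0.670 FPKM in siNC, and like LOC101121216 it was lowest in siINHBA library 1. The nearest genes to SLPI were NEURL3 (0.33), the interleukin-23 subunit gene IL23A (0.37) and the chemokine gene CCL20 (0.45). In the siNC libraries NEURL3 had at most 7 reads and IL23A at most 3, against up to 107 for CCL20. CCL20 had 63.5, 55.6 and 71.0 FPKM in siINHBA, against 2.73, 1.51 and 3.02 FPKM in siNC. For S100A12 the nearest were the chemokine genes CXCL1 (0.55) and CXCL11 (0.60) and IRAK3, an inhibitor of toll-like receptor signalling (0.66). These 3 genes were also at 0 in siNC library 2, and S100A12 lay 1.49 or more from each of the other 3 described genes. Profiles were taken after adding 0.5 to every count, so this 0 and that setting weigh on each of these distances. In log2 fold change S100A12, at 3.63, lay close to LOC105604171, at 3.61. Distances without siNC library 2 were not computed.

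**Figure D4:**
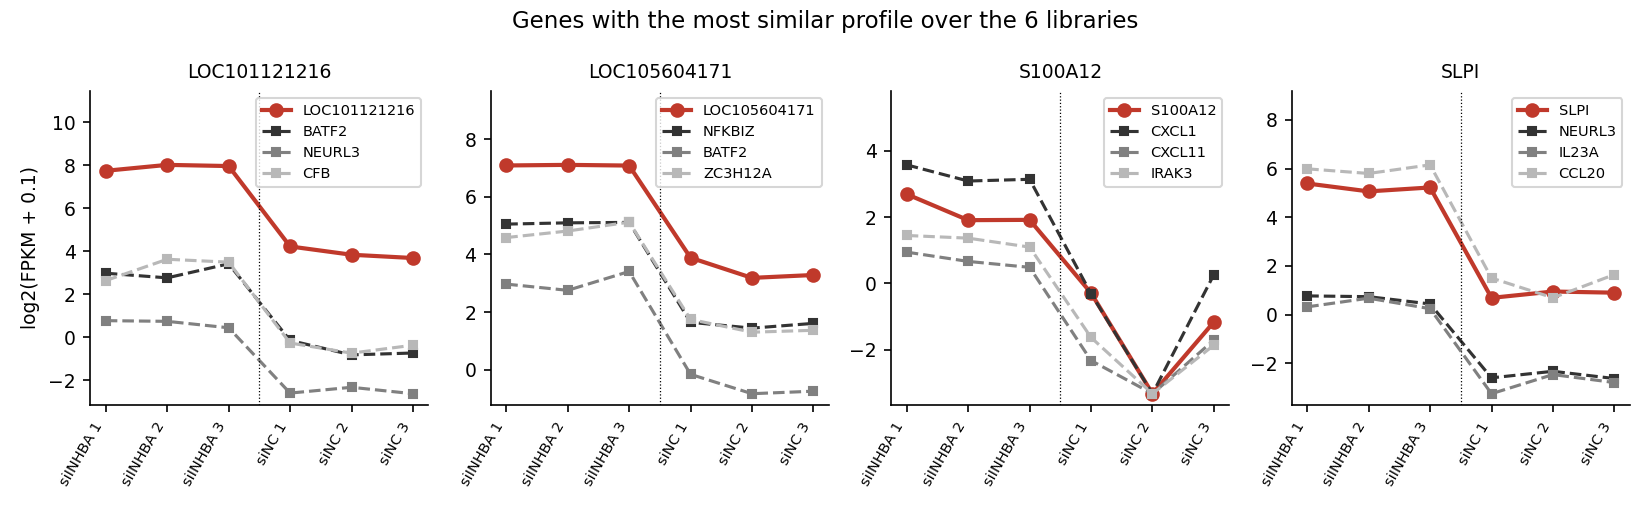
log2(FPKM + 0.1) in each siINHBA library (left of the dotted line) and siNC library (right of it) for each described gene (red) and the genes with the nearest profile (black to grey), with lines only joining the points of a gene. The genes near S100A12 share its drop to 0 FPKM in siNC library 2, and NFKBIZ and LOC105604171 are level over the siINHBA libraries.

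The listed acute phase genes changed in the same direction as the amyloid A genes. Of 30 acute phase genes 5 were listed, and all 5 rose, where 34.3% of the table was higher. Their median log2 fold change was 1.64, against -1.16 over all listed genes. The direction of acute phase genes outside the table is not known here. CFB, of the alternative complement pathway, rose most, at 3.95 (SE 0.29, edgeR adjusted p = 1.2e-06). C1S, a protease of the classical complement pathway, rose by 1.64 (SE 0.13), the fibrinogen chain gene FGB by 1.54 (SE 0.20) and the pentraxin PTX3 by 1.29 (SE 0.13), each with an edgeR adjusted p of at most 3.1e-05. The level of LOC101121216 was 8.11, 11.5 and 8.50 times that of PTX3 in siINHBA, against 1.63, 1.38 and 1.23 times in siNC. The symbols SAA1 to SAA4, HP and LCN2 were not among the listed genes. The Swiss-Prot column of the deposited table does, however, match both LOC101121216 and LOC105604171 to bovine SAA1.

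In the S100 list 2 of 20 genes were listed, S100A9 and the epithelial S100A14. Both rose, where 34.3% of the table was higher, so little can be read from this count. S100A14 had 47.4, 40.4 and 43.5 FPKM in siINHBA, against 12.1, 12.5 and 10.8 FPKM in siNC, so it was far more abundant than S100A12 in both groups. AGER, the gene of RAGE, was not listed. In the list of WAP proteins and protease inhibitors 3 of 23 were listed, SLPI included: SLPI and WFDC3 were higher and 1 fell, with a median log2 fold change of 1.20. The gene that fell was TIMP4, an inhibitor of matrix metalloproteinases. TIMP4, at 0.06 FPKM in siINHBA and 0.21 FPKM in siNC, fell by 1.85 (SE 0.39), a fall that did not pass under TMM scaling (edgeR adjusted p = 0.12). Of 15 antimicrobial genes 1 was listed, CHI3L1, a secreted chitinase-like protein, which rose by 1.54 (SE 0.10).

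In a list of 19 receptors for amyloid A and S100 proteins and members of their signalling path, 2 were listed. Both rose, where 34.3% of the table was higher, so this count too says little. They were TLR1, a toll-like receptor, at 1.20 (SE 0.28), and IRAK3, the inhibitor of toll-like receptor signalling, at 4.10 (SE 0.55). FPR2, TLR2 and TLR4, which are known to bind these proteins, were not among the listed genes. The list of NF-kB, C/EBP and STAT3 factors and their inhibitors had 12 of 22 genes listed. Of these 11 rose and 1, SOCS3, fell, beside the same 34.3% of the table higher, with a median log2 fold change of 1.85. NFKBIZ rose by 3.65 (SE 0.11), ZC3H12A by 3.41 (SE 0.18), CEBPD, the C/EBP factor of the acute phase, by 2.57 (SE 0.13) and NFKBIA, which holds NF-kB in the cytoplasm, by 2.47 (SE 0.15), each with an edgeR adjusted p of at most 7.3e-07. SOCS3, an inhibitor of STAT3 signalling, had a log2 fold change of -1.05 (SE 0.18), which turned to 0.04 under TMM scaling. Of these 11 higher genes, 9 were highest in siNC library 1 among the controls and 8 were lowest in siINHBA library 1, against 41.4% and 31.5% of the 555 higher genes.

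The list of cytokines of the amyloid A response, with their receptors and the interleukin-1 receptor antagonist, had 5 of 23 genes listed. All 5 rose, where 34.3% of the table was higher, with a median log2 fold change of 1.43. IL1A rose by 2.55 (SE 0.24) and IL6 by 2.36 (SE 0.28), with an edgeR adjusted p of at most 2.1e-05. IL6 was low, at 4.36 ± 0.35 FPKM in siINHBA and 0.84 ± 0.35 FPKM in siNC (mean ± SD, n = 3 each). OSMR, a receptor chain for oncostatin M, rose by 1.34 (SE 0.14) and LIF, a cytokine of the interleukin-6 family, by 1.14 (SE 0.16). IL1RN, which encodes the antagonist that blocks interleukin-1 at its receptor, rose by 1.43 (SE 0.38, edgeR adjusted p = 3.7e-03). IL1B and TNF were not among the listed genes.

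**Figure D5:**
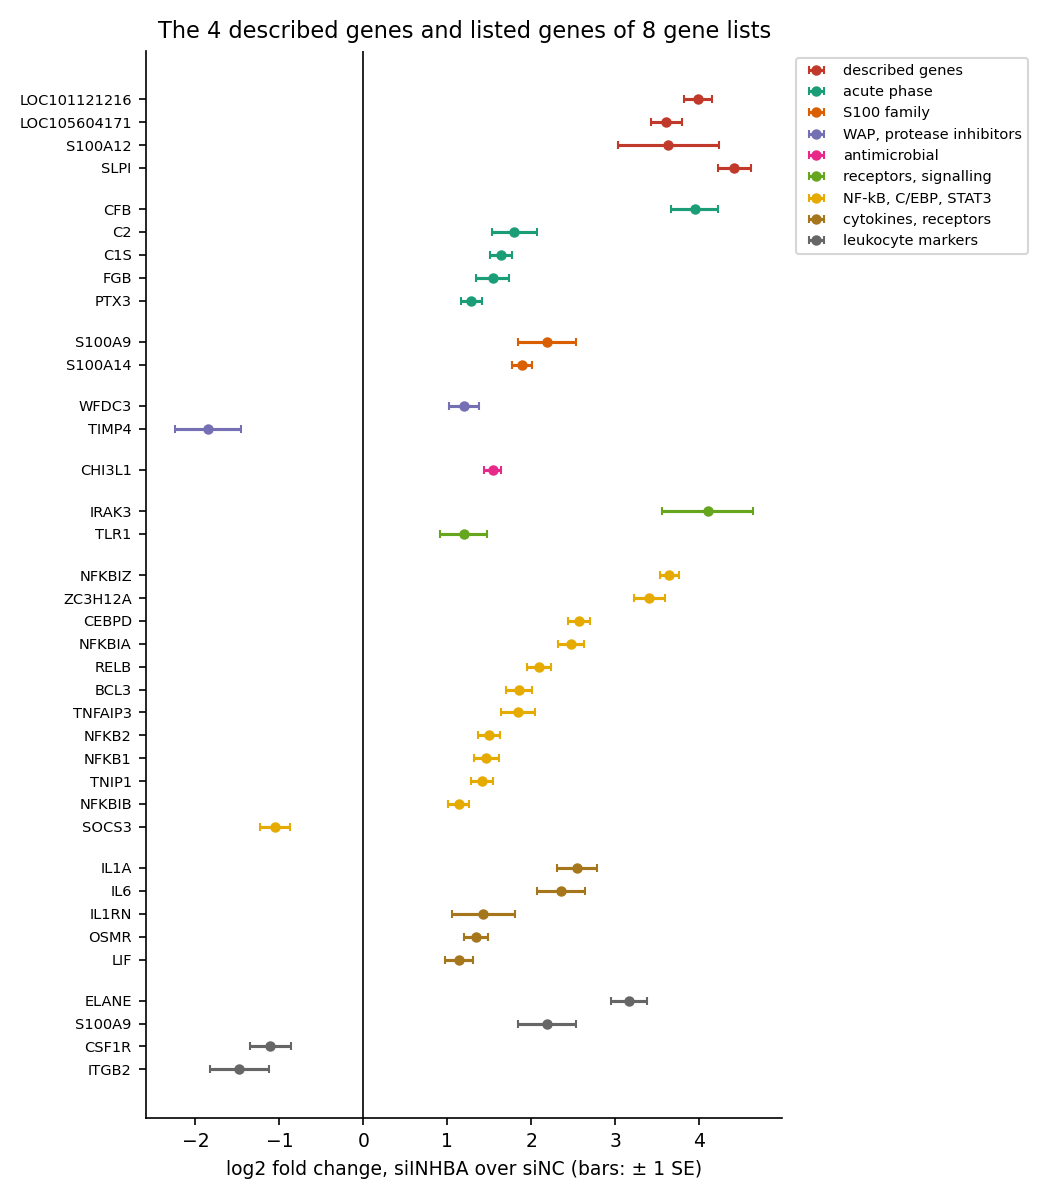
log2 fold change, siINHBA over siNC, with bars of 1 SE (horizontal axis), of the 4 described genes (top, red) and of listed genes of 8 gene lists, coloured by list. The genes left of 0 are TIMP4, SOCS3 (which turned to 0.04 under TMM scaling), CSF1R and ITGB2. CFB, IRAK3 and NFKBIZ lie within the range of the described genes.

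S100A12 and SLPI are also made by cells other than granulosa cells, so markers of such cells are given beside them. Of 22 leukocyte markers 4 were listed: ELANE and S100A9 rose, and CSF1R and ITGB2 fell, to 0.204 and 0.233 FPKM in siINHBA, against 0.442 and 0.659 FPKM in siNC. The summed FPKM of these 4 markers ran from 10.2 to 12.1 in siINHBA and from 2.26 to 2.92 in siNC. Most of the siINHBA sum was ELANE, whose identity is less certain, at a mean of 8.11 FPKM, with S100A9 at 2.84 FPKM. The sum therefore hides markers that went opposite ways. The falls of CSF1R and ITGB2 did not pass under TMM scaling (edgeR adjusted p = 0.95 and 0.38). The pan-leukocyte gene PTPRC and the neutrophil genes CSF3R, CXCR2 and MPO were not among the listed genes, so their level is not known here. Of 15 epithelial and mesothelial markers 4 were listed, with 1, PAX8, higher and 3 lower, KRT19 among them at 4.27 ± 0.82 FPKM in siINHBA and 15.1 ± 0.41 FPKM in siNC. UPK1B and LRRN4 were the others, and the lower level of UPK1B did not pass under TMM scaling (edgeR adjusted p = 0.95). The summed FPKM of these 4 ran from 27.0 to 28.04 in siINHBA and from 42.6 to 43.9 in siNC. PAX8 was at 13.5 FPKM in siINHBA and 5.04 FPKM in siNC, while the other 3 were lower in siINHBA. This sum too joins markers that went opposite ways. All 4 listed markers of theca, stroma and endothelium, of 17, were lower, as was 65.7% of the table. These were PDGFRB, DES, VWF and KDR, with VWF not past the threshold under TMM scaling (edgeR adjusted p = 0.44). Their summed FPKM ran from 16.2 to 21.8 in siINHBA and from 63.7 to 66.6 in siNC. Nearly all of it was DES and PDGFRB, at means of 11.8 and 7.82 FPKM in siINHBA and 40.1 and 24.1 FPKM in siNC. VWF and KDR were low, at 0.125 and 0.047 FPKM in siINHBA and 0.332 and 0.296 FPKM in siNC. Of 16 granulosa markers 5 were listed, with INHBA, INHA, CYP11A1 and NR5A1 lower and HSD17B1 higher. NR5A1 did not pass under TMM scaling (edgeR adjusted p = 0.33). That scaling moved the whole table up, the siRNA target included: INHBA went from a log2 fold change of -1.49 to -0.41. INHA was then at -0.70 and CYP11A1 at -0.37. Falls that did not pass under TMM scaling are to be read beside this shift. The part of other cell types in the levels of S100A12 and SLPI was not tested.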

How the data were processed

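Messenger RNA was enriched on oligo(dT) beads before library construction, per the labels' protocols. The authors' aligner, counter, statistical test and genome build were not given in the sources used here. Positions of genes are therefore left out. Per the file headers, each gene of the deposited sheet has a read count and FPKM in every library, beside the false discovery rate and log2 fold change of the authors. That deposited false discovery rate, a p-value adjusted for multiple testing, was at most 0.0090 and the absolute log2 fold change at least 1.00, so the sheet holds called genes only. Incomplete lines, 4 in number, were dropped.

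Counts of all 1620 genes were fitted by the quasi-likelihood test of edgeR 4.0.16 under R 4.3.3, without a block, after filterByExpr (minimum count 10), which kept every gene. Adjustment was by Benjamini-Hochberg, with a threshold of 0.05. Library sizes were the median ratio of count to FPKM among 702 genes that exceeded 200 counts in all libraries, since TMM assumes that most genes do not change. SE is the absolute log2 fold change over the square root of F. The summed copies were fitted as an added row. Poisson and binomial intervals cover counting error only. Alternatives were TMM, DESeq2 1.42.0, limma 3.58.1 on log2(FPKM + 1) and log2(FPKM + 0.1), no filter, a replicate block and leaving out each library. The fit was checked on simulated counts.

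The 4 genes, the 11 gene lists and the tests were chosen with earlier results of these data known. Named by rule were the 4 genes, INHBA, the 3 nearest profiles to each gene and to the sum, the 4 genes of each list with the smallest adjusted p, and other genes described as serum amyloid A, S100 or WAP proteins. TM4SF1, SOCS3, HSD17B1, IL1RN, neighbouring genes and genes given as not listed were added with their values known. An item of a list is not reported here, and that list was counted without it. All 4 genes matched RefSeq symbols. The planned search for promoter motifs was not run. Libraries of a group differed by more than sampling noise (mean chi-square per gene 17.6 to 47.4 in siINHBA and 5.34 to 8.78 in siNC). Each was kept as a replicate in the fit, but these values do not show that the libraries came from separate cultures or animals.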

Additional observations from a re-analysis of the deposited data

How the results depend on the processing

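The fold changes of the 4 genes stayed positive in every setting tried. TMM over the listed genes raised the median log2 fold change of the table by 1.09 and gave 5.08 for LOC101121216, 4.70 for LOC105604171, 4.92 for their sum, 5.51 for SLPI and 4.71 for S100A12. DESeq2 with its own size factors gave 5.07, 4.70, 4.92, 5.52 and 4.73 in the same order. With these scalings 364 and 359 genes were called lower in place of 1065; the cause was not tested. In limma on log2(FPKM + 1) SLPI was at 3.83 and S100A12 at 2.04, because a pseudocount of 1 is large beside their siNC levels. Without each library in turn, LOC101121216 ran from 3.88 to 4.16, LOC105604171 from 3.48 to 3.86, their sum from 3.74 to 4.04, S100A12 from 3.06 to 4.63 and SLPI from 4.34 to 4.50; 555 genes were called higher each time and 1063 to 1065 lower. The share of LOC105604171 then ran from 35.0% to 37.1% in siINHBA and from 41.1% to 43.7% in siNC. Nothing in the labels pairs libraries of equal number, and such libraries correlated at 0.03, 0.16 and -0.02 in their deviations from the group means. With a replicate block the log2 fold changes were 3.997 for LOC101121216, 3.64 for LOC105604171, 3.86 for their sum, 3.75 for S100A12 and 4.42 for SLPI. Counting error limits the siNC levels of S100A12, with at most 14 reads, and of SLPI, with at most 28.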
